A study of Mus musculus with 6 samples.

Results

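The Cd8 locus on mouse chromosome 6 holds the genes of both chains of the CD8 coreceptor, Cd8a (gene ID 12525) and Cd8b1 (gene ID 12526). It was taken here as the 80 kb at chr6:71260001-71340000 in build mm9, which make up 160 bins of 500 bp out of 5283716 in all. The 2 genes are the only members. The bins were taken by position, and shorter stretches within the locus were chosen after the values were seen, as said where they are used. The 6 libraries came from mature CD8+ T cells and mature CD4+ T cells of C57BL/6 thymus, with 1 library each for H3K4me3, H3K36me3 and input without antibody, and the inputs are the reference for each precipitate. Micrococcal nuclease reduced the chromatin to single nucleosomes, and the antibodies were rabbit polyclonals. All groups share the strain, the tissue and the nuclease step, and the labels used here do not say how many animals or sorted cells went into a library. With 1 library per group there is no replicate error, so no p-value is given, and every interval below covers counting error only.

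CD8 is a surface protein that binds major histocompatibility complex class I beside the T cell receptor. CD8α, encoded by Cd8a, pairs with itself or with CD8β, encoded by Cd8b1, and brings the kinase Lck to the receptor. Thymocytes that carry both CD4 and CD8 precede the mature stages, after which CD4 cells shut the Cd8 genes off and CD8 cells keep them on. Enhancers in and around the stretch between the 2 genes are known to direct this expression at different stages. H3K4me3 is a histone mark of active promoters, while H3K36me3 is laid down over the bodies of transcribed genes.

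No gene annotation of mm9 was used, so 7 regions in round numbers stood for the parts of the locus. Both genes read toward higher coordinates. The Cd8b1 promoter window was chr6:71271501-71274500 and the Cd8b1 body chr6:71274501-71287500. The Cd8a promoter window was chr6:71322001-71325000 and the Cd8a body chr6:71325001-71329000. Between the genes lay chr6:71287501-71322000, before Cd8b1 chr6:71260001-71271500 and after Cd8a chr6:71329001-71340000. In the RefSeq gene order of build GRCm38.p6 the next annotated gene before Cd8b1 is the long non-coding RNA Gm38828, the one after Cd8a is the protein-coding gene Rmnd5a, and none is listed between the members. The exon and intron limits of both genes in mm9 were not used here.

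Levels are given in RPM, reads scaled to a library of 1000000, and per kb where regions of different length are compared. The CD8 over CD4 ratios are relative to the median ratio over windows enriched in both cell types. That median lay at a log2 ratio of 0.40 for H3K4me3 and 0.04 for H3K36me3, so total-read scaling would raise each H3K4me3 ratio by a factor of 1.32. Between 6730337 and 12114294 reads per library lay on placed chromosomes. Distinct start positions made up 31.4% of the CD8 and 54.4% of the CD4 H3K4me3 reads, against 91.2% to 97.6% in the other libraries. Away from enriched regions the CD8 H3K4me3 library was at 1.20% of its input and the CD4 H3K4me3 library at 19.2%, so CD4 H3K4me3 counts hold more background. H3K36me3 was at 32.5% of input there in CD8 and 31.7% in CD4.

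Fewer cells with a mark and less of the mark per cell cannot be told apart in these bulk libraries. The first comparison asked whether the chromatin of the locus fits the cell type on the label. Over the whole locus H3K4me3 had 8719 reads in CD8 cells and 625 in CD4 cells, 9.34-fold higher in CD8 (95% interval 8.61 to 10.1). H3K36me3 had 1010 reads in CD8 and 323 in CD4, 3.03-fold higher in CD8 (2.67 to 3.45). Cd4, the gene of the other coreceptor, ran the opposite way in a 30 kb window at chr6:124810001-124840000, whose limits were placed by general knowledge of mm9. There H3K4me3 had 68 CD8 reads and 2200 CD4 reads, and H3K36me3 had 151 CD8 and 488 CD4 reads. Both coreceptor genes thus carried more of both marks in the cell type named after them. The input ran slightly against the marks, with 242 CD8 reads and 336 CD4 reads over the Cd8 locus, a ratio of 0.734 (0.620 to 0.869).

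**Figure D1:**
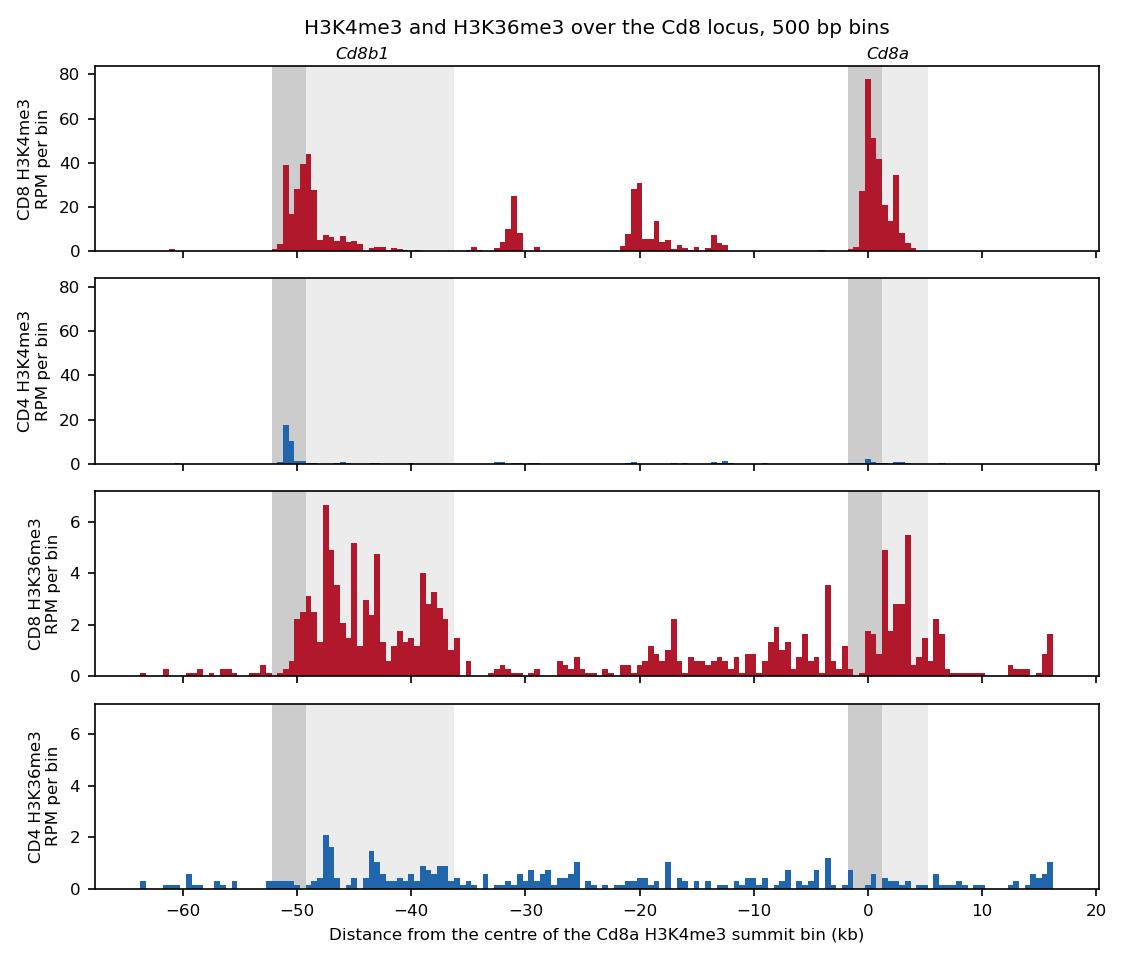
RPM per 500 bp bin of H3K4me3 and H3K36me3 in CD8 (red) and CD4 cells (blue), against the distance in kb from the centre of the bin with most CD8 H3K4me3 reads at Cd8a; dark grey marks the promoter windows and light grey the gene bodies, and the scale is shared within each mark. In CD8 cells H3K4me3 stands at both genes and at several places between them, while in CD4 cells a single narrow peak remains visible at Cd8b1.

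At the Cd8a promoter window the difference between cell types was wider than at Cd8b1. H3K4me3 had 2430 reads in CD8 cells, 66.9 RPM per kb, and 50 reads in CD4 cells, 1.55 RPM per kb. The inputs held 8 CD8 and 14 CD4 reads in the same window. The Cd8a promoter was 250.1-fold over input in CD8 (127 to 580.1) and 3.39-fold over input in CD4 (1.84 to 6.63). A CD4 level at the background of that library would have given 2.83 reads, so the 50 CD4 reads lay above it. The ratio of CD8 over CD4 was 32.5 (24.6 to 44.0). With 1 read kept per start position it was 12.0 (8.95 to 16.4), an interval that does not meet the first. The 2430 CD8 reads fell on 622 start positions and the 50 CD4 reads on 49.

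The RefSeq table of build GRCm38.p6 held the promoter of Cd8a, 1 of the 2 members; Cd8b1 is named only. The sequence is shown because the H3K4me3 of CD8 cells began abruptly near the start of this gene. It runs from 250 bases before to 50 bases after the annotated start, on the plus strand at chr6:71373177-71373476 of GRCm38.p6, a build whose coordinates differ from those of the reads. Capitals mark the only match among 4 short motifs searched on both strands.
Cd8a promoter: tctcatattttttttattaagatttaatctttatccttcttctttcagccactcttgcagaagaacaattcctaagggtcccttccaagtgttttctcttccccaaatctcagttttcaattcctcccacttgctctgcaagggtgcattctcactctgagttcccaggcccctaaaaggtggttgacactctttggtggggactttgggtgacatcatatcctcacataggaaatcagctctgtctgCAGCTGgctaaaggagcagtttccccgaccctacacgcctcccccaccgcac
The match is the E box CAGCTG, the same on both strands, and lies across the annotated start. Of 32851 promoters of the same length in the table, 16.3% held it. The Runx motif TGTGGT, the GATA motif AGATAA and the TATA motif TATAAA had no match in this window, and 16.8%, 11.2% and 13.6% of all promoters held them. These matches describe letters in the window, and no factor was measured.

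At finer scale the Cd8a signal in CD8 cells started within 100 bp. The bin chr6:71323301-71323400 held 4 CD8 reads and no CD4 read, and the next, chr6:71323401-71323500, held 320 CD8 reads and 5 CD4 reads. From there CD8 reads formed blocks, with 336 reads in the highest 100 bp bin, chr6:71323601-71323700, where CD4 had 9. The blocks were parted by low bins such as chr6:71323901-71324000, with 26 CD8 reads and 1 CD4 read. A block of 148 CD8 and 4 CD4 reads at chr6:71326001-71326100 lay within the gene body. In CD4 cells the same stretch had no 100 bp bin above 9 reads.

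In 500 bp bins the Cd8a summit, chr6:71323501-71324000, had 941 CD8 reads and 25 CD4 reads, a 25.2-fold difference (17.0 to 39.1). It was the highest bin of the locus in CD8. Among 41400 enriched bins of the CD8 library 95.1% held fewer reads. In the CD4 library it was the single enriched bin at Cd8a and stood low among 45693 enriched bins, of which 7.04% held fewer reads. A bin counted as enriched with at least 20 reads and at least 4 times its input.

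The Cd8b1 promoter window differed less between the cell types. H3K4me3 had 1542 reads in CD8 cells, 42.4 RPM per kb, and 335 reads in CD4 cells, 10.4 RPM per kb. Both lay far over input, 141-fold in CD8 (74.1 to 309) and 45.4-fold in CD4 (21.8 to 114). The ratio of CD8 over CD4 was 3.08 (2.74 to 3.48), and 3.02 with 1 read per start position. The interval of Cd8b1 thus did not reach that of Cd8a. The ratio moved to 4.07 with all limits shifted 500 bp up and to 2.22 with them shifted 500 bp down, so its size depends on where the window ends.

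**Figure D2:**
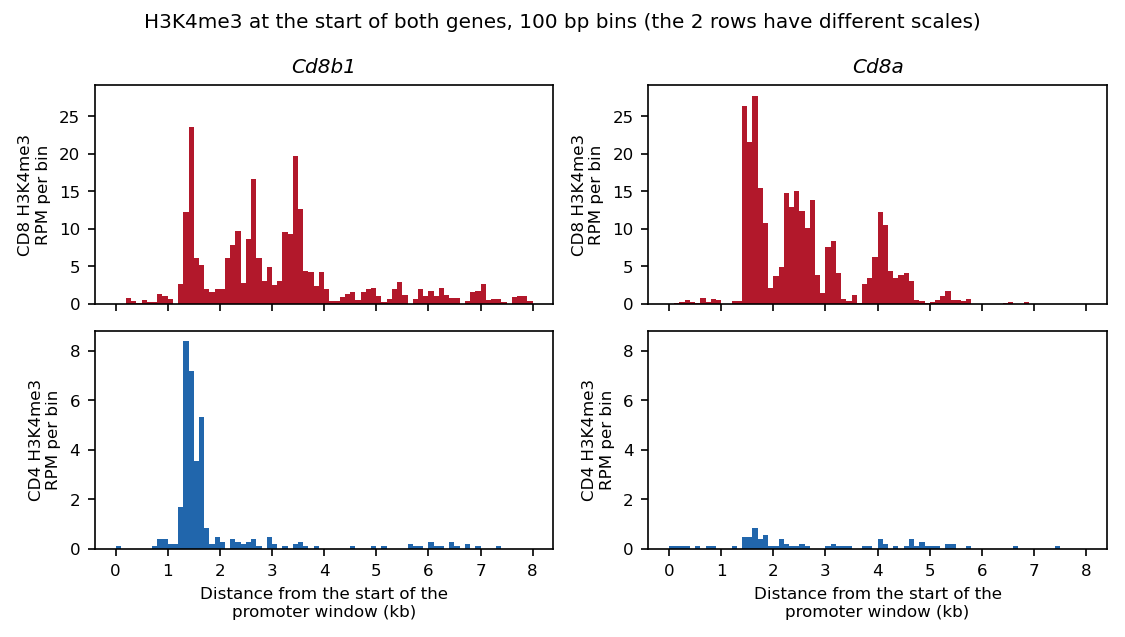
H3K4me3 RPM per 100 bp bin over 8 kb from the start of each promoter window, in CD8 cells (upper row) and CD4 cells (lower row, with a smaller scale). Cd8b1 shows a peak of the same position in both cell types, followed by further peaks in CD8 cells; Cd8a shows peaks in CD8 cells and at most 9 reads per bin in CD4 cells.

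The Cd8b1 signal differed between the cell types in shape. A narrow peak at chr6:71272501-71273500, limits chosen after the values were seen, held 673 CD8 reads against 300 in CD4, a ratio of 1.50 (1.31 to 1.73). Right behind it, chr6:71273501-71275500 held 1685 CD8 reads against 35 in CD4. The difference was 32.2-fold (23.1 to 46.4), or 15.2-fold with 1 read per start position. A further stretch at chr6:71276001-71279500 held 457 CD8 and 20 CD4 reads, and the ratio was 15.3 (9.79 to 25.3). The limits of these 2 stretches were also chosen after the values were seen. The contrast between the stretches partly follows from that choice, which the intervals do not cover. Inputs held 2 reads each at the narrow peak, so it was carried by the mark in both cell types. It made up 22.1% (20.6 to 23.6) of the H3K4me3 reads of promoter and body in CD8 and 77.5% (73.0 to 81.6) in CD4, with exact binomial intervals.

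Within the narrow Cd8b1 peak the 500 bp bin chr6:71272501-71273000 had 471 CD8 and 189 CD4 reads, and chr6:71273001-71273500 had 202 CD8 and 111 CD4 reads. In CD4 the first of these was the highest bin of the locus, with fewer reads in 68.1% of the enriched CD4 bins. It was thus above the middle of all marked bins in CD4 cells, whose median was 104 reads. In CD8 the highest bin of Cd8b1 lay 2 kb further in, chr6:71274501-71275000, with 533 CD8 reads and 5 CD4 reads. At 100 bp the peak had the same position in both, with 285 CD8 and 77 CD4 reads at chr6:71272901-71273000 and 148 CD8 and 90 CD4 reads in the bin before it. The bin at chr6:71273101-71273200 was nearly level, with 62 CD8 reads and 57 CD4 reads.

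Within each library the order of the 2 promoters was reversed. In CD8 cells the Cd8a promoter window had 1.58 times the H3K4me3 reads of the Cd8b1 window (1.48 to 1.68). The Cd8b1 window ends just before the highest CD8 bin of that gene, chr6:71274501-71275000 with 533 CD8 reads. The size of the CD8 value thus depends on where the windows end. In CD4 cells the Cd8a window had 0.149 times as many reads as the Cd8b1 window (0.109 to 0.201). The Cd8b1 promoter held 17.7% of all H3K4me3 reads of the locus in CD8 and 53.6% in CD4. The Cd8a promoter held 27.9% of them in CD8 and 50 of 625 reads in CD4.

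**Figure D3:**
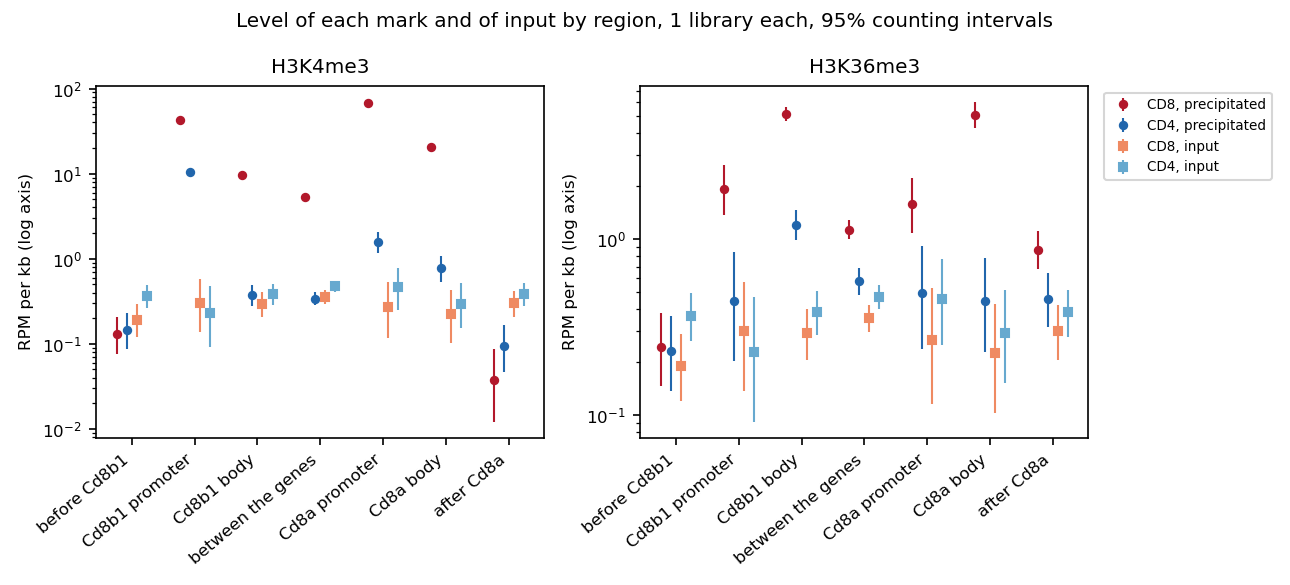
RPM per kb on a log axis in each of the 7 regions, for H3K4me3 (left) and H3K36me3 (right), with 95% Poisson intervals; circles are precipitated libraries and squares inputs, CD8 in red tones and CD4 in blue tones. The CD8 marks stand above all other points from the Cd8b1 promoter to the Cd8a body, and the CD4 H3K4me3 point stands far above input at the Cd8b1 promoter.

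H3K4me3 in CD8 cells spread over long stretches of both genes. Contiguous enriched bins ran for 7.5 kb at Cd8b1, chr6:71272001-71279500, with 2913 CD8 and 364 CD4 reads. At Cd8a they ran for 5 kb, chr6:71322501-71327500, with 3399 CD8 and 77 CD4 reads. In CD4 cells the matching runs were 1 kb at Cd8b1 and 0.5 kb at Cd8a. The Cd8b1 body outside the promoter window had 1508 CD8 and 52 CD4 reads, and the ratio was 19.4 (14.7 to 26.1), and the Cd8a body 1003 CD8 and 33 CD4 reads, and the ratio was 20.3 (14.4 to 29.7). With 1 read per start position these ratios were 13.3 and 12.6, and with limits shifted 500 bp up that of the Cd8b1 body was 13.6. CD4 H3K4me3 was at 0.967 times input in the Cd8b1 body (0.644 to 1.45) and 2.61 times in the Cd8a body (1.31 to 5.54). With 1 read per start position the CD4 value in the Cd8b1 body was 1.73 (1.15 to 2.59). The 52 CD4 reads and 51 input reads there each had their own start position, so only the library totals changed. Whether CD4 lies above input in this body thus depends on the scaling. The CD4 library background would have given 10.3 of the 52 CD4 reads in the Cd8b1 body and 2.43 of the 33 in the Cd8a body.

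The stretch between the genes, where enhancers of the locus are known to lie, carried 25.4% of the CD8 H3K4me3 reads of the locus. It held 2213 CD8 reads and 126 CD4 reads, an 11.8-fold difference (9.82 to 14.2). CD8 was 14.8-fold over input there (12.4 to 17.9) and CD4 at 0.720 times input (0.566 to 0.913). With 1 read per start position CD8 was 23.9-fold over input, and CD4 turned to 1.28 times input (1.003 to 1.625). The 126 CD4 reads fell on 123 start positions, so for CD4 mainly the library totals changed. These data thus do not place CD4 below or above input. The CD4 library background would have given 33.6 of the 126 CD4 reads, and subtracting background from both counts raised the ratio to 16.0. No CD4 bin passed as enriched between the genes.

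CD8 reads between the genes lay in separate places. A run of 4.5 kb at chr6:71302001-71306500 had 1253 CD8 and 15 CD4 reads, and the ratio was 55.9 (33.8 to 100.2). A run of 2 kb at chr6:71291501-71293500 had 577 CD8 and 22 CD4 reads and a ratio of 17.6. A run of 1.5 kb at chr6:71310001-71311500 had 170 CD8 and 26 CD4 reads, and the ratio was 4.38 (2.89 to 6.89). The limits of these runs were set by enrichment in CD8 cells in the same reads. The direction of their ratios thus largely follows that choice, which the intervals do not cover. The ratios differed among the runs, and nothing more is read from them. Another 4 single bins passed between the genes, with 21 to 37 CD8 and 1 to 4 CD4 reads. Which of these places matches a named Cd8 enhancer was not analysed here.

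The longest of these runs held bins as strongly marked as parts of the genes. Its summit, chr6:71303501-71304000, had 376 CD8 reads and 1 CD4 read, and 73.0% of all enriched CD8 bins had fewer reads. From chr6:71304001-71306000 the run had 347 CD8 reads and no CD4 read in a window of 2 kb. That window ranked first of 24614 windows of 2 kb by the CD8 over CD4 ratio of H3K4me3, with 0.5 reads added to each count. It passed as enriched through CD8 alone, and without a CD4 read its ratio rests on the 0.5 reads added. The rank is given as a description only. The input there was 7 CD8 and 13 CD4 reads.

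Across the genome the rule for a difference was a centred fold of at least 2 with an exact counting interval that excludes 1. Its error was 0.1% if reads are independent. Of 49544 bins of 500 bp enriched in either cell type, 9.41% were called higher in CD8 and 28.2% higher in CD4. In the locus 47 of 160 bins were enriched, all in CD8 and 3 of them in CD4. Of these 47, 38 were called higher in CD8, 0 higher in CD4 and 9 neither. Since 44 of the 47 entered through CD8 alone, the cell type where they are high, the direction of these calls was largely set by the filter, and nothing is read from their share. The 9 included both bins of the narrow Cd8b1 peak and bins with 38 or fewer CD8 reads.

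By 2 kb windows, 17 of the locus were tested, and 17 were called higher in CD8, where 5.08% of all windows were. Of the 17, 16 were enriched in CD8 alone and 1 in both cell types, so this count too follows the filter. Their ranks, given as a description, by ratio ran from 1 to 1015 of 24614. The lowest rank belonged to chr6:71272001-71274000, which holds the narrow Cd8b1 peak. The window behind it, chr6:71274001-71276000, ranked 9, and chr6:71324001-71326000 at Cd8a ranked 7.

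H3K36me3 marked both gene bodies in CD8 cells at about the same level per kb. The Cd8b1 body had 452 reads in CD8 cells, 5.14 RPM per kb, and 106 in CD4 cells, 1.21 RPM per kb. The Cd8a body had 138 reads in CD8, 5.10 RPM per kb, and 12 in CD4, 0.446 RPM per kb. The ratio of CD8 over CD4 was 4.14 at Cd8b1 (3.34 to 5.16) and 11.2 at Cd8a (6.19 to 22.1), and these intervals do not meet. For H3K36me3 in the bodies the gap between the cell types was thus wider at Cd8a, whereas the H3K4me3 ratios of the bodies, 20.3 at Cd8a and 19.4 at Cd8b1, had overlapping intervals.

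Over input the Cd8b1 body was 17.6-fold in CD8 (12.6 to 25.1) and 3.14-fold in CD4 (2.23 to 4.48). The Cd8a body was 22.6-fold over input in CD8 (11.6 to 50.5) and 1.51-fold in CD4 (0.621 to 3.68). H3K36me3 over Cd8b1 was therefore above input in CD4 cells, while over Cd8a the CD4 interval includes the input level. The Cd8a body over the Cd8b1 body, per kb, was 0.992 in CD8 (0.814 to 1.20) and 0.368 in CD4 (0.184 to 0.670). At the library background CD4 would have had 10.7 reads in the Cd8b1 body and 2.52 in the Cd8a body.

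The promoter windows held less H3K36me3 than the bodies. In the Cd8b1 window there were 39 CD8 and 9 CD4 reads, and the ratio was 4.20 (2.00 to 9.87), and in the Cd8a window 32 CD8 and 10 CD4 reads, and the ratio was 3.10 (1.49 to 7.08). With limits shifted 500 bp up the ratios were 7.28 at Cd8b1 and 7.64 at Cd8a, and shifted 500 bp down that of Cd8b1 was 2.03 (0.9499 to 4.61), an interval that includes 1. At the narrow Cd8b1 peak H3K36me3 had 6 CD8 and 4 CD4 reads, too few to show a difference at this depth. Behind it, where CD8 H3K4me3 was highest at Cd8b1, the 2 kb chosen after the values were seen had 70 CD8 and 4 CD4 H3K36me3 reads. The difference was 17.0-fold (6.34 to 64.0). Both marks thus overlapped in that 2 kb in CD8 cells.

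H3K36me3 between the genes was uneven. The stretch as a whole had 265 CD8 and 134 CD4 reads, 1.92-fold higher in CD8 (1.55 to 2.38). It was split at limits chosen after the values were seen. The bin right behind Cd8b1, chr6:71287501-71288000, had 10 CD8 and 3 CD4 reads, a ratio of 3.23 (0.833 to 18.3). The 15 kb after that bin, chr6:71288001-71303000, had 44 CD8 and 61 CD4 reads, a ratio of 0.700 (0.464 to 1.05). The next 12 kb, chr6:71303001-71315000, had 107 CD8 and 42 CD4 reads, a ratio of 2.47 (1.71 to 3.62). The 7 kb before Cd8a, chr6:71315001-71322000, had 104 CD8 and 28 CD4 reads, a ratio of 3.60 (2.35 to 5.68). A difference in H3K36me3 was thus present before the Cd8a promoter window. The intervals of the bin right behind Cd8b1 and of the 15 kb after it both include 1.

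In those last 7 kb H3K36me3 had no enriched H3K4me3 bin beside it. H3K4me3 had 8 CD8 and 10 CD4 reads there, below input in both cell types, at 0.188 times in CD8 (0.0754 to 0.413) and 0.263 times in CD4 (0.117 to 0.542). The library background would have given 0.511 CD8 and 7.28 CD4 reads. The 8 CD8 reads lay above it, and the interval of the 10 CD4 reads, 4.80 to 18.4, includes it. H3K36me3 was 4.39-fold over input in CD8 (2.96 to 6.63) and 1.18-fold in CD4 (0.691 to 1.98). Its highest bin, chr6:71320001-71320500, had 24 CD8 and 8 CD4 reads, but also 8 CD8 and 3 CD4 input reads. In the 15 kb nearest to Cd8b1 H3K4me3 had 790 CD8 and 57 CD4 reads. H3K36me3 there was at 1.30 times input in CD8 (0.846 to 1.99) and 1.30 times in CD4 (0.907 to 1.85). Both of these intervals include the input level. They lie above the H3K36me3 library background, which was 32.5% of input in CD8 and 31.7% in CD4.

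Along the locus, windows of 5 kb followed the same order for H3K36me3. The highest CD8 window was chr6:71275001-71280000 in Cd8b1, with 215 CD8 and 40 CD4 reads, and 99.2% of 50008 enriched CD8 windows had fewer. At Cd8a, chr6:71325001-71330000 had 157 CD8 and 16 CD4 reads, and the ratio was 9.52 (5.68 to 17.1), which ranked 8 of 57242 windows. Of 16 windows in the locus 11 were enriched at 2 times input in either cell type, and 8 of these were called higher in CD8 and 0 higher in CD4. Of the 8, 6 were enriched in CD8 alone, so they entered through the cell type where they are high, and 2, both in Cd8b1, were enriched in both. Over all tested windows 0.873% were called higher in CD8 and 1.98% higher in CD4.

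The 3 windows not called were chr6:71295001-71300000 with 18 CD8 and 30 CD4 reads, chr6:71310001-71315000 with 38 CD8 and 15 CD4 reads, and chr6:71335001-71340000 with 27 CD8 and 22 CD4 reads. The first lies in the part between the genes nearest to Cd8b1 and held no CD8 H3K4me3 read in any of its 500 bp bins. The last lies at the far end, toward Rmnd5a in the gene order. With a 4-fold rule 3 of the 11 windows of 5 kb were called higher in CD8, against 0.112% of all tested windows. In windows of 10 kb 5 of 6 were called higher in CD8, 4 of them enriched in CD8 alone, where 0.84% of all windows were called higher in CD8 and 2.08% higher in CD4.

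**Figure D4:**
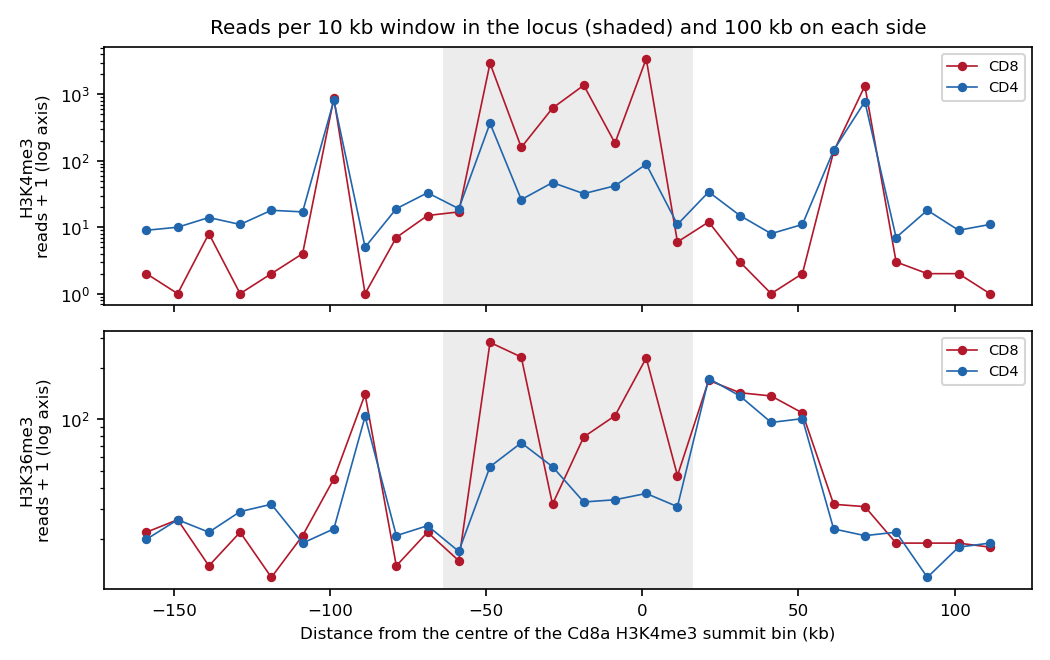
Reads plus 1 on a log axis in windows of 10 kb over the locus (shaded) and 100 kb on each side, for H3K4me3 (upper) and H3K36me3 (lower), in CD8 cells (red) and CD4 cells (blue). The CD8 and CD4 lines part within the shaded locus and lie close at the H3K4me3 peaks and H3K36me3 blocks outside it; in most other flanking windows the CD8 H3K4me3 line is below the CD4 line, with 14 or fewer CD8 reads per window.

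The difference between the cell types ended near the limits of the locus. Before Cd8b1, chr6:71260001-71271500 had 18 CD8 and 18 CD4 H3K4me3 reads and 19 CD8 and 18 CD4 H3K36me3 reads. After Cd8a, chr6:71329001-71340000 had 5 CD8 and 11 CD4 H3K4me3 reads, and 65 CD8 and 34 CD4 H3K36me3 reads, a H3K36me3 ratio of 1.85 (1.21 to 2.90). Over the 100 kb before the locus the H3K36me3 ratio was 1.03 (0.876 to 1.20), from 328 CD8 and 310 CD4 reads, and over the 100 kb after it 1.09 (0.974 to 1.21), from 686 CD8 and 612 CD4 reads. Single flanking windows of 10 kb departed from these sums in both directions, between 0.344 (0.156 to 0.704) at chr6:71200001-71210000 and 1.94 (1.14 to 3.40) at chr6:71220001-71230000.

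H3K4me3 outside the locus had 1 main peak on each side. The window chr6:71220001-71230000 had 872 CD8 and 809 CD4 reads, a ratio of 0.722 (0.655 to 0.795), and chr6:71390001-71400000 had 1346 CD8 and 777 CD4 reads, a ratio of 1.16 (1.06 to 1.27). Both ratios are far from those at Cd8a. Over 100 kb the ratio was 0.647 before the locus (0.589 to 0.709) and 0.980 after it (0.905 to 1.06), beside a library background of 1.20% of input in CD8 and 19.2% in CD4, whose part in these ratios was not tested.

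The last comparison asked how often both marks were higher in CD8 at 1 place. The set was 4526 windows of 10 kb enriched for each mark in either cell type. Of these, 14 had both centred log2 ratios at 1 or more, and 5 of the 14 lie in the locus. All 5 locus windows in this set are among them. Each of the 5 passed the filter through CD8 alone for 1 or both marks. The counts given here thus largely follow the filter, and nothing is read from them. Both log2 ratios reached 2 in 2 windows, chr6:71270001-71280000 at Cd8b1 and chr6:71320001-71330000 at Cd8a. These windows had 2933 CD8 and 366 CD4 H3K4me3 reads at Cd8b1, and 3435 CD8 and 88 CD4 H3K4me3 reads at Cd8a.

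**Figure D5:**
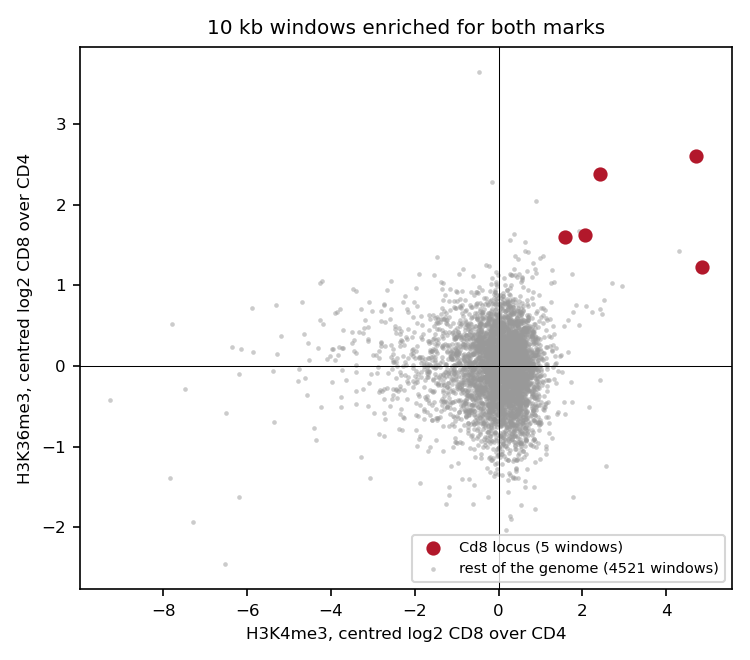
Centred log2 CD8 over CD4 ratio of H3K36me3 against that of H3K4me3 in 4526 windows of 10 kb. All were enriched for each mark in either cell type. Each point is a window, and the 5 windows of the Cd8 locus are in red. The 2 locus windows with both ratios at 2 or more stand at the upper right, and most of the genome lies near 0 for H3K36me3.

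Outside the locus the window most like that of Cd8a was chr17:84240001-84250000, at a Euclidean distance of 1.23 in the 2 log2 ratios. It had 758 CD8 and 25 CD4 H3K4me3 reads and 59 CD8 and 21 CD4 H3K36me3 reads. The next 4 lay at distances of 2.37 to 2.92. They were chr2:32500001-32510000, chr5:67810001-67820000, chr9:45660001-45670000 and chr5:100990001-101000000. Their log2 ratios ran from 1.92 to 2.95 for H3K4me3 and from 0.82 to 1.68 for H3K36me3, against 4.70 and 2.60 at Cd8a. This likeness rests on 4 libraries, and no gene names are given for these windows.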

How the data were processed

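Mononucleosomal DNA of 6 libraries was sequenced, 1 per mark or input and cell type. The authors deposited the start and end of each aligned read, 33 bp wide, with no strand, score or other normalization. Build mm9 comes from the processing notes of the submitters. For the aligner, multiple matches and repeats, nothing was given in the sources used. Positions count from 1.

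Midpoints were counted for reads placed on autosomes 1 to 19 and both sex chromosomes. Input was set to at least 3 reads when enrichment was called (at least 20 reads, 4 times input for H3K4me3 and 2 times for H3K36me3). Ratios were centred on windows of 2 kb (H3K4me3) and 10 kb (H3K36me3) enriched in both cell types. Intervals are exact 95% intervals, Poisson for levels and conditional binomial for ratios. Reads carry no molecular identifiers and each was counted as independent. Intervals thus cover counting error only and can be too narrow where reads share start positions. Library background came from windows of 2 kb at least 10 kb from any with more than 9 reads of either mark. The call rule was tested on simulated independent Poisson counts. These hold no shared start positions and no variation between libraries, so the simulation cannot show how the rule behaves under either. Alternatives were 1 read per start, total-read scaling, background subtraction, shifted limits, read starts, pooled inputs, other folds, bin sizes and read minimums. The rule for named windows was the 5 of 10 kb nearest in both log2 ratios to the Cd8a promoter window. They were enriched for each mark in either cell type. The members, regions and lists were chosen with earlier results of these data known. Regulators of Cd8 expression were not analysed, since no mm9 annotation was used. Computations used Python 3.11.15, NumPy 2.4.6, SciPy 1.17.1, pandas 2.3.3 and matplotlib 3.10.9.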

Additional observations from a re-analysis of the deposited data

How the results depend on the processing

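With 1 library per group, all values compare libraries. No paired analysis was possible because each group has 1 library. The 8 ratios of the 2 marks at promoters and bodies kept their direction under the 6 alternatives of each. Total-read scaling gave H3K4me3 ratios of 4.08 at the Cd8b1 promoter and 15.6 between the genes. Keeping 1 read per start gave 12.0 at the Cd8a promoter, 12.6 in its body, 13.3 in the Cd8b1 body and 8.77 between the genes. Background subtraction gave 16.0 between the genes, and it turned the H3K4me3 ratio after Cd8a, 0.304 from 5 CD8 and 11 CD4 reads, to 1.01. Limits shifted up gave 4.07 at the Cd8b1 promoter, 13.6 in its body and, for H3K36me3, 7.64 at the Cd8a promoter; shifted down, 2.22 at the Cd8b1 promoter. CD8 H3K4me3 over input with 1 read per start was 49.1 in the Cd8b1 body, 23.9 between the genes, 1.86 before Cd8b1 and 0.387 after Cd8a, and CD4 H3K4me3 was 1.73 in the Cd8b1 body and 1.28 between the genes, where it was 0.720 with all reads. The genome share called higher in CD8 for H3K4me3 was 1.44% at 4-fold, 21.3% with total-read scaling, 5.66% with 1 read per start and 6.18% in 1 kb bins, and for H3K36me3 0.112% at 4-fold. H3K36me3 windows of the locus called higher in CD8 numbered 3 of 11 at 4-fold and 5 of 6 in 10 kb windows, where the genome share was 0.84%. The H3K4me3 bins of the locus called higher in CD8 numbered 38 of 47 by the main rule. They numbered 26 of 31 in 1 kb bins, 32 of 34 at 50 reads and 44 of 47 with total-read scaling. At 50 reads the genome share was 11.7%. As with the main rule, nothing is read from these shares of the locus. Stricter folds and larger bins lower counts by construction, and total-read scaling multiplies each H3K4me3 ratio by 1.32. The CD4 H3K4me3 reads numbered 52 on 52 starts in the Cd8b1 body and 126 on 123 between the genes. With 1 read per start their values over input thus moved mainly with the library totals. Distinct starts made up 54.4% of the CD4 H3K4me3 reads and 97.2% of the CD4 input reads. For other changes the cause was not tested.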
